A study of Mus musculus with 2 samples.

Results

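The genes described here encode 9 growth factors of the spermatogonial niche, the group of cells around spermatogonia that decides whether these germ cells renew or differentiate. They are Gdnf, Kitl, Csf1, Fgf2, Fgf8, Igf1, Egf, Lif and Vegfa, chosen by name, with no measured value in the rule, among 23294 genes named in the files. All 9 are listed in the files of both libraries. RNA with a poly(A) tail came from spermatogonial progenitor cells isolated from the testes of C57BL/6 mice 8 days after birth and was read as 100-nucleotide pairs. A single library was labelled Dnmt3l knockout and a single library wild type. The series title concerns quiescence of these cells under DNMT3L, a cofactor without catalytic activity that helps the enzymes of de novo DNA methylation. The deleted stretch of Dnmt3l, the number of animals pooled and the markers used to isolate the cells are not given in the sources used here. Dnmt3l itself was listed at 0 FPKM in the knockout library, against 1.67 FPKM in the wild-type library.

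Within the testis, GDNF from Sertoli and peritubular cells acts on spermatogonia through the co-receptor GFRA1 and the kinase RET and holds them in self-renewal. Kit ligand, also from Sertoli cells, acts through KIT on spermatogonia that have begun to differentiate. CSF1, the FGFs, IGF1, EGF, LIF and VEGFA are further factors of the somatic cells or of the media in which spermatogonia are cultured.

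Levels are FPKM, fragments divided by the length of the transcript and by the size of the library, so they can be set side by side between genes. Each file lists RefSeq transcripts and further transcript models, assembled separately in each library from its own reads, and gives each an FPKM with a lower and an upper bound. The value of a gene is the sum over both kinds, and its bounds are the sums of their bounds, which speak of the estimate in a single library and not of differences between animals. Log2 ratios are of FPKM + 1, knockout over wild type, so they understate the differences of low genes. With 1 library per genotype there was no test and no p-value, and "higher" and "lower" below compare these libraries only.

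Kit ligand (Kitl) had the log2 ratio furthest from 0 among the growth factors with the pseudocount of 1 used here, at 5.21 FPKM (bounds 4.42 and 6.01) in the knockout and 10.01 FPKM (bounds 8.64 and 11.4) in the wild-type library. With a pseudocount of 0.1 Fgf8, at 1.00, lay further from 0 than Kitl, at -0.93, and so it did by the coverage attribute, at 1.04 against -0.77. Csf1 was higher in the knockout library, at 7.02 FPKM, than in the wild-type library, at 4.50 FPKM. Igf1, the most abundant of the 9 in both libraries, was close in both, at 19.6 FPKM in the knockout and 18.4 FPKM in the wild-type library. Fgf2 and Lif stayed under 1 FPKM in both libraries. In such bulk RNA, fewer cells of a type and less RNA per cell cannot be told apart.

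Of the 9 genes, 7 reached 1 FPKM in at least 1 library and were compared, and Fgf2 and Lif did not. Among these 7, 0 were at least 2-fold higher in the knockout library, where 7.67% of the 13817 genes compared were, and 0 were at least 2-fold lower, where 3.5% were. A shift of 0.21 on the log2 scale separated the libraries at the median gene among those above 1 FPKM in both. Relative to that gene Kitl alone passed 2-fold, at -1.03, and 5.41% of the genes compared were at least 2-fold lower by the same measure, with 4.87% at least 2-fold higher. The bounds of the libraries lay apart for 2 of the 7, Kitl and Csf1, and for 51.6% of the genes compared. The growth factors had a median log2 ratio of 0.17, beside 0.22 over all genes compared. Their FPKM summed to 47.8 in the knockout and 46.6 in the wild-type library. Over all genes compared the sums were 511113 in the knockout and 412364 in the wild-type library.

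**Figure D1:**
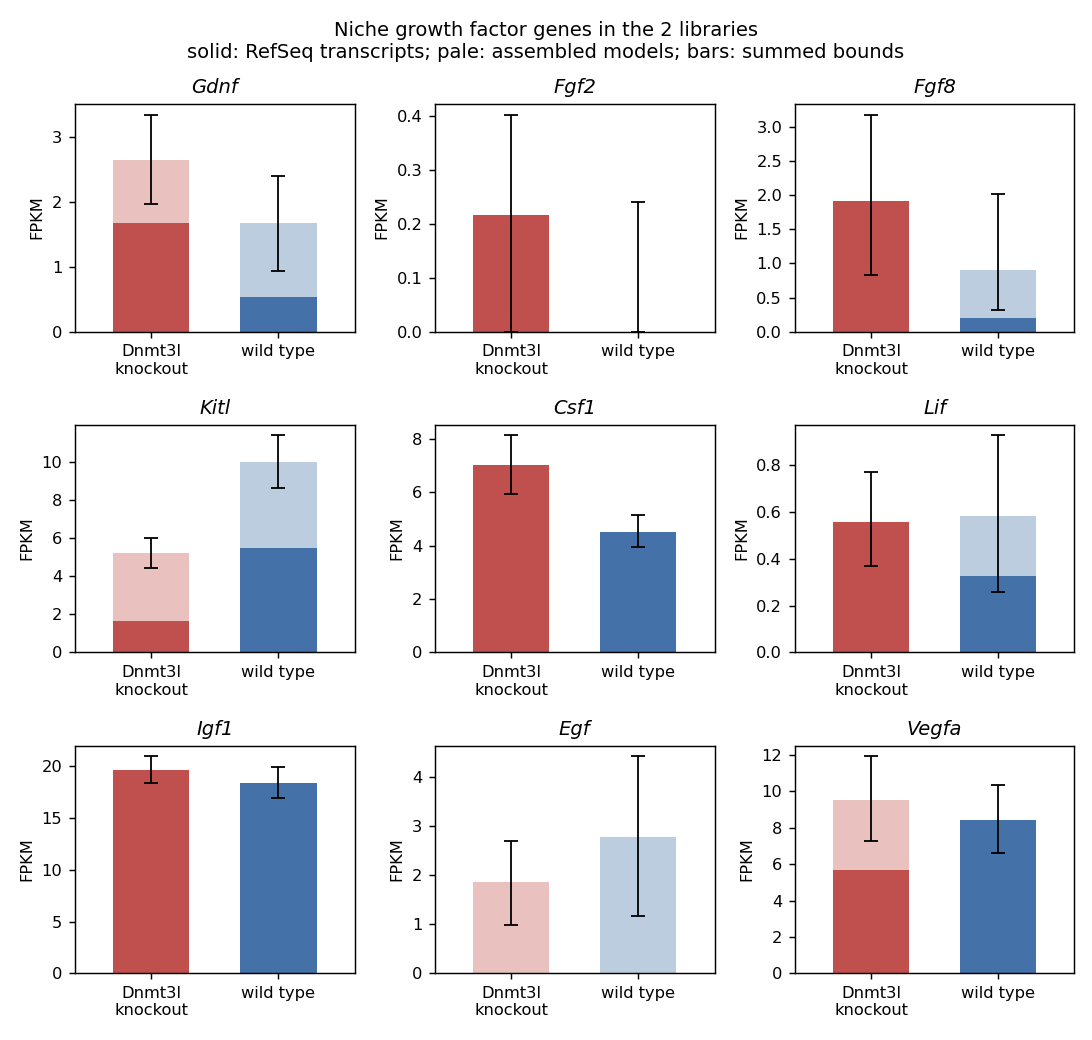
FPKM of the 9 growth factor genes in the Dnmt3l knockout library (red, left) and the wild-type library (blue, right), with the part in RefSeq transcripts solid, the part in assembled models pale, and the summed lower and upper bounds as error bars; each panel has its own axis from 0. The bars of Kitl and Csf1 have bounds that lie apart, Fgf2 has no wild-type bar, and all of Egf is in assembled models.

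The order of the 9 levels had Igf1 first and Lif and Fgf2 last in both libraries. In the knockout library it ran Igf1, Vegfa, Csf1, Kitl, Gdnf, Fgf8, Egf, Lif and Fgf2, and the bounds of neighbours lay apart only between Igf1 and Vegfa, Kitl and Gdnf, and Egf and Lif. In the wild-type library it ran Igf1, Kitl, Vegfa, Csf1, Egf, Gdnf, Fgf8, Lif and Fgf2, with bounds apart only between Igf1 and Kitl, Vegfa and Csf1, and Lif and Fgf2. Kitl thus stood in place 4 in the knockout and in place 2 in the wild-type library. Its level exceeded that of 28.5% of the genes compared in the knockout and of 47.2% in the wild-type library. Igf1 exceeded 62.8% of them in the knockout and 65.1% in the wild-type library, so even the most abundant factor was a gene of middle rank. The place of Egf rests on summed models that mostly cover only part of the gene. Its mean level over its exon bases was 0.625 in the knockout and 0.894 in the wild-type library, where that of Gdnf was 1.62.

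GDNF is the self-renewal factor of spermatogonial stem cells. Gdnf (chr15:7811011-7837575, plus strand, mm10) had 2.65 FPKM (bounds 1.97 and 3.35) in the knockout and 1.67 FPKM (bounds 0.935 and 2.41) in the wild-type library, a log2 ratio of 0.45. The bounds overlapped, so the libraries were not separated at this gene. Its RefSeq transcript of 3 exons had 1.67 FPKM in the knockout and 0.536 FPKM in the wild-type library. The rest was in models: a single-exon model of the last exon with 0.981 FPKM in the knockout library, and in the wild-type library a similar one with 0.526 FPKM and a 3-exon model with 0.610 FPKM. That 3-exon model left out 78 nt at the end of the second exon, a stretch that separates the known long and short pro-regions of the GDNF precursor. The stretch is coding throughout and 66.7% of its bases are G or C. It is shown in capitals, with 15 nt of transcript on each side in lower case, from the GENCODE M21 transcripts (chr15:7815688-7815765, plus strand, GRCm38, the assembly also called mm10).
Gdnf, 78 nt: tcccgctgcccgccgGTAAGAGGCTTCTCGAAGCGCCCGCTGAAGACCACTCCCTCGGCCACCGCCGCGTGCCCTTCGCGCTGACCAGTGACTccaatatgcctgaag
All Gdnf transcripts that span this stretch held it in the knockout library, where it was in 1.67 FPKM and left out of none. In the wild-type library 0.536 FPKM held it and 0.610 FPKM lacked it, so 46.7% of the spanning FPKM had the long form. At less than 1 FPKM, and with bounds of 0.296 and 0.778 for the long form against 0.345 and 0.871 for the short one in that library, the shares are poorly determined.

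FGF2 and FGF8 act through FGF receptors, and FGF2 is added with GDNF to cultures of spermatogonial stem cells. Fgf2 had 0.217 FPKM in the knockout library, with a lower bound of 0. Its wild-type value was 0, with an upper bound of 0.240 FPKM. No ratio can be drawn from these values. The RefSeq transcript of Fgf2 in the files is 695 nt long, and no assembled model was joined to it in either library. Fgf8 had 1.91 FPKM (bounds 0.830 and 3.19) in the knockout and 0.906 FPKM (bounds 0.321 and 2.03) in the wild-type library. The log2 ratio was 0.61, with bounds that overlap. The knockout level was in the RefSeq transcripts of 1199 nt, with 0.919 FPKM, and of 1040 nt, with 0.993 FPKM. In the wild-type library the 1040-nt transcript had 0.195 FPKM and a 6-exon assembled model had 0.711 FPKM. Fgf8 therefore had a log2 ratio of 1.29 when RefSeq transcripts alone were counted and of 0.50 by exon level, the mean over the exon bases of the summed FPKM of every model that covers each base.

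Kit ligand is made as a membrane-bound and as a shed form. Kitl (chr10:100015824-100100412, plus strand) had a log2 ratio of -0.83 by the sum of all its transcripts and of -0.92 by exon level. Its complete RefSeq transcript of 10 exons had 1.63 FPKM (bounds 1.32 and 1.95) in the knockout and 5.50 FPKM (bounds 4.89 and 6.12) in the wild-type library, a log2 ratio of -1.30. The wild-type library also held a 9-exon model with 3.35 FPKM that started at the same first exon. Transcripts with that first exon thus summed to 1.63 FPKM in the knockout and 8.84 FPKM in the wild-type library. The remaining Kitl level was in models of 4 exons at the 3′ end, with 3.58 FPKM (bounds 3.10 and 4.07) in the knockout and 1.17 FPKM (bounds 0.926 and 1.41) in the wild-type library. The first exon of this model was 299 nt long in the knockout and 3165 nt long in the wild-type library. The 3′ models thus outweighed the complete transcript in the knockout library and fell short of it in the wild-type library. Over the first 1000 nt of the longest transcript the summed FPKM was 2.34 in the knockout and 8.80 in the wild-type library, a log2 ratio of -1.55. Over the last 1000 nt it was 5.21 in the knockout and 10.01 in the wild-type library. The knockout library was lower at both ends, and further below the wild-type library at the 5′ end. A ratio lower at the 5′ end was not particular to Kitl. Vegfa had -0.75 over the first and -0.04 over the last 1000 nt. Among receptor genes Gfra1 had -0.93 and 0.80, and Lifr had -1.31 and 0.05. Igf1r, Egfr, Kdr, Nrp1, Fgfr4 and, by little, Kit had the lower ratio at the 3′ end.

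The 9-exon Kitl model of the wild-type library lacked the 84-nt sixth exon. That exon is known to encode the site at which the protein is cut from the membrane, so transcripts with it give mostly the shed form and transcripts without it mostly the membrane-bound form. The exon is coding throughout and is shown in capitals with 15 nt of the neighbouring exons on each side (chr10:100080857-100080940, plus strand, GRCm38).
Kitl, 84 nt: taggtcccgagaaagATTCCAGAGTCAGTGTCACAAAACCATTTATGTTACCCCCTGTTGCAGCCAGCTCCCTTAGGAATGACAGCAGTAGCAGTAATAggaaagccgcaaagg
Transcripts with the exon had 1.63 FPKM in the knockout library, and no transcript or model without it was listed there. In the wild-type library 5.50 FPKM held the exon and 3.35 FPKM (bounds 2.83 and 3.87) lacked it, so it was in 62.2% of the FPKM that spans it. The 3′ models, with 3.58 FPKM in the knockout and 1.17 FPKM in the wild-type library, begin downstream of the exon and say nothing of its use. Models are assembled separately in each library, so a form not listed is not shown to be absent.

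**Figure D2:**
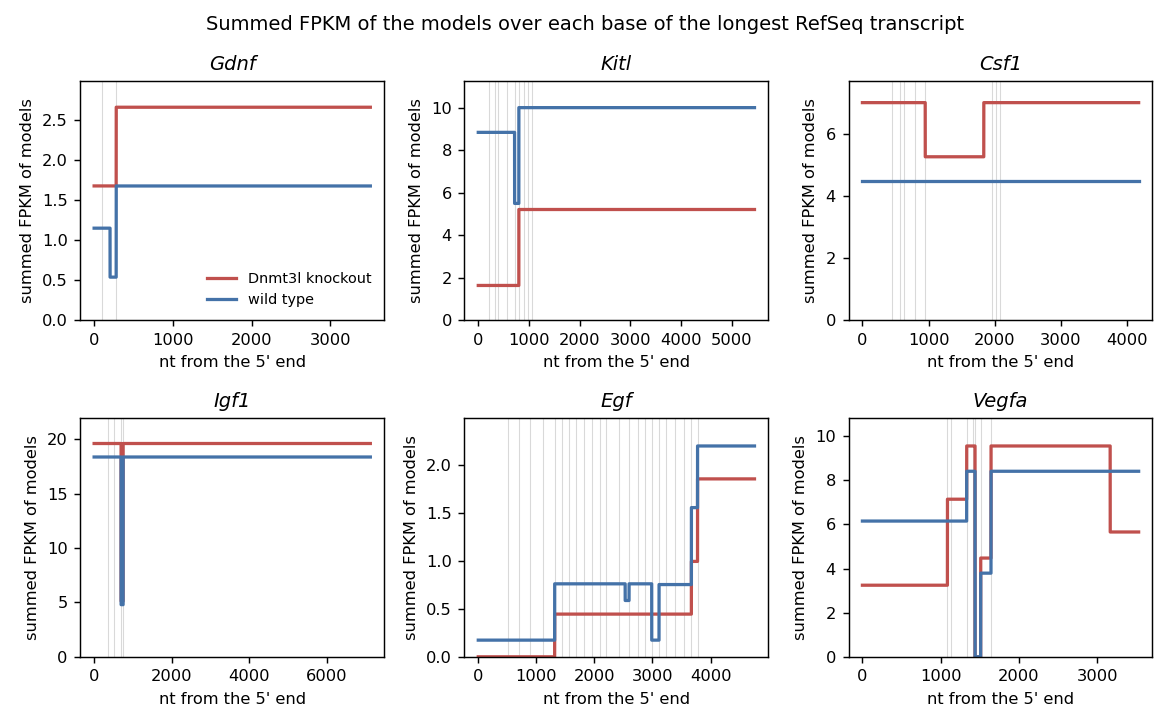
Summed FPKM of all transcripts and models over each base of the longest RefSeq transcript of 6 growth factor genes, from the 5′ end (left), in the Dnmt3l knockout library (red) and the wild-type library (blue), with grey lines at exon borders. These are levels of whole models and not read coverage. Kitl lies at 1.63 in the knockout and 8.84 in the wild-type library at its 5′ end, and at 5.21 in the knockout and 10.01 in the wild-type library at its 3′ end.

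CSF1 is the growth factor of macrophages and is also known to act on spermatogonial stem cells through CSF1R. Csf1 (chr3:107741048-107760469, minus strand) had 7.02 FPKM (bounds 5.95 and 8.14) in the knockout and 4.50 FPKM (bounds 3.96 and 5.14) in the wild-type library, a log2 ratio of 0.54. The bounds lay apart, and all of the level was in RefSeq transcripts. The 4176-nt transcript had 5.27 FPKM (bounds 4.65 and 5.89) in the knockout and 4.50 FPKM (bounds 3.96 and 5.04) in the wild-type library, so the bounds of this form overlapped. A second transcript of 3291 nt, which lacks 885 nt at the start of the sixth exon (chr3:107748285-107749169, minus strand), had 1.75 FPKM (bounds 1.30 and 2.20) in the knockout library. Its wild-type value was 0, with an upper bound of 0.0396 FPKM. The missing 885 nt are coding, and the short form is known to stay longer at the cell surface than the long one. The long form made up 75.1% of the Csf1 level in the knockout and 100% in the wild-type library, and most of the difference in Csf1 was in the short form. With the most abundant RefSeq transcript alone the log2 ratio was 0.19. The remaining RefSeq transcript, with another 3′ end, was listed at 0 in both libraries.

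LIF supports germ cells in culture and signals through LIFR and IL6ST. Lif (chr11:4257568-4272514, plus strand) had 0.557 FPKM (bounds 0.372 and 0.772) in the knockout and 0.585 FPKM (bounds 0.260 and 0.928) in the wild-type library. The whole knockout level was in the RefSeq transcript of 3 exons, whose first exon begins at position 4267095. Of the wild-type level, 0.326 FPKM was in the RefSeq transcript of 4 exons, whose first exon begins at 4257568, and 0.259 FPKM in a model that begins at 4268037. The gene totals were close, the first exons listed differed, and at this level neither was well determined.

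IGF1 is made by Leydig and other somatic cells and acts on spermatogonia through IGF1R. Igf1 (chr10:87859056-87937047, plus strand) had 19.6 FPKM (bounds 18.4 and 20.9) in the knockout and 18.4 FPKM (bounds 16.9 and 20.0) in the wild-type library, a log2 ratio of 0.09. Relative to the median gene the ratio was -0.12, so its sign depended on the scaling. Its transcripts used the first exon that begins at position 87859056, and the 3 RefSeq transcripts with the other first exon, at 87861111, were listed at 0 in both libraries. The 4-exon transcript had 14.5 FPKM in the knockout and 13.6 FPKM in the wild-type library. The 5-exon transcript had 5.12 FPKM in the knockout and 4.79 FPKM in the wild-type library. These transcripts differ by a 52-nt exon whose length is not a multiple of 3, so its presence shifts the reading frame and gives another E-peptide behind the mature hormone. The exon is shown in capitals with 15 nt of its neighbours (chr10:87915298-87915349, plus strand, GRCm38).
Igf1, 52 nt: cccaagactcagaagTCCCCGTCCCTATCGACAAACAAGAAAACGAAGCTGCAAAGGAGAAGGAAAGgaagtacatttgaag
It was in 26.1% of the Igf1 level in the knockout and in 26.1% in the wild-type library. Both the level and the form of Igf1 were thus nearly the same in these libraries.

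EGF is a growth factor of many epithelia and a common additive to cultures of spermatogonia. Egf (chr3:129677575-129755322, minus strand) had 1.86 FPKM (bounds 0.995 and 2.70) in the knockout and 2.79 FPKM (bounds 1.16 and 4.43) in the wild-type library, a log2 ratio of -0.41 with bounds that overlap. The RefSeq transcript of 24 exons was listed at 0 in both libraries, and the whole level was in assembled models, 3 in the knockout and 5 in the wild-type library. All 3 knockout models cover the last exon, while those of the wild-type library overlap in part only, with at most 2.20 FPKM over any base of the RefSeq transcript. The exon level was 0.625 in the knockout and 0.894 in the wild-type library. No model of the knockout library began at the first exon, and a 24-exon model with 0.174 FPKM did so in the wild-type library. Over the last 1000 nt the summed FPKM was 1.84 in the knockout and 2.19 in the wild-type library. Egf was thus mostly a 3′ signal in both. The gene 6330410L21Rik overlaps Egf on the other strand and was listed at 0 in both libraries, and the protocol in the labels names no step that keeps the strand.

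VEGFA is the main growth factor of blood vessels and is also made by Sertoli and germ cells. Vegfa (chr17:46016993-46032377, minus strand) had 9.55 FPKM (bounds 7.29 and 11.9) in the knockout and 8.41 FPKM (bounds 6.64 and 10.3) in the wild-type library, a log2 ratio of 0.17. By RefSeq transcripts alone the ratio was -0.50, with 5.66 FPKM in the knockout and 8.41 FPKM in the wild-type library, and by exon level it was -0.09, so its direction depended on the measure. The sum and the RefSeq value of the knockout library differ by a 6-exon model with 3.90 FPKM (bounds 3.02 and 4.75), which begins with an exon of 179 nt inside the first intron. Transcripts from the upstream first exon summed to 3.24 FPKM in the knockout and 6.15 FPKM in the wild-type library. Transcripts that begin at a downstream exon of 720 nt had 2.41 FPKM in the knockout and 2.26 FPKM in the wild-type library. These were different transcripts, of 4 exons in the knockout and of 3 exons in the wild-type library. The upstream first exon was thus lower in the knockout library while the gene total was not.

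Vegfa transcripts also differ by exons of 72 nt and 132 nt, both known to encode stretches that bind heparin and hold the protein near the cell that made it. Both are coding throughout and are shown in capitals, each with 15 nt of neighbouring exons (72 nt, chr17:46022277-46022348, and 132 nt, chr17:46020991-46021122, both minus strand, GRCm38).
Vegfa, 72 nt: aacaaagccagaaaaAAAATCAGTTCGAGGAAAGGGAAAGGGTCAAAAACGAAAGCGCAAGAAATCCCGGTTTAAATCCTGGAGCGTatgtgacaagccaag
Vegfa, 132 nt: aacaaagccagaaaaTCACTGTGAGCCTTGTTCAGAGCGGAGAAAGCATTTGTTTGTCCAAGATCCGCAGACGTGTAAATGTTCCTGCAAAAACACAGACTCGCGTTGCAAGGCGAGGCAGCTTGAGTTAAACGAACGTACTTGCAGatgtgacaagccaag
Transcripts with the 72-nt exon were listed at 0 in both libraries. The 132-nt exon was in 4.47 FPKM and absent from 5.08 FPKM in the knockout library, and was in 3.79 FPKM and absent from 4.62 FPKM in the wild-type library. It was thus in 46.8% of the Vegfa level in the knockout and in 45.1% in the wild-type library, and the bounds of these levels overlapped. These like shares came from different transcripts. Of those that begin at the 720-nt exon, the 2.41 FPKM of the knockout library held the 132-nt exon. The 2.26 FPKM of the wild-type library lacked it, as did the 6-exon model with 3.90 FPKM in the knockout library. The longest form, with both exons, was not listed above 0 in either library.

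**Figure D3:**
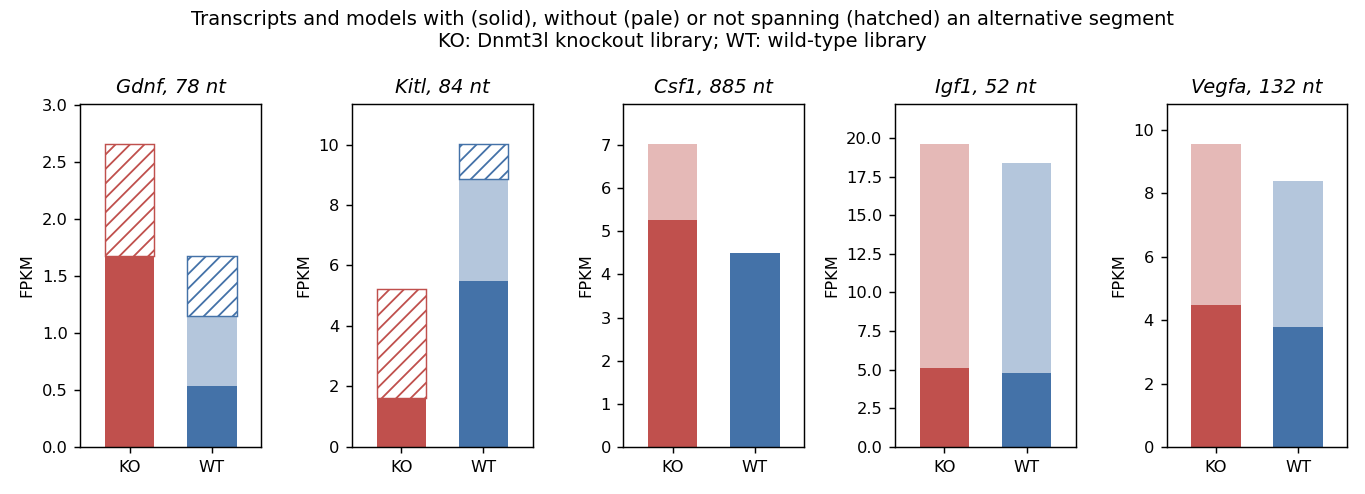
FPKM of transcripts and models that hold (solid), lack (pale) or do not span (hatched) an alternative stretch of 5 growth factor genes, in the Dnmt3l knockout library (KO, left) and the wild-type library (WT, right); each panel has its own axis from 0. Igf1 and Vegfa have like shares in both libraries, forms without the stretch of Gdnf and Kitl appear in the wild-type library only, and the form without the stretch of Csf1 appears in the knockout library only.

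The receptors of these factors were mostly at higher levels than the factors. Of 15 receptor genes, 14 were compared. In the knockout library 0 were at least 2-fold higher, beside 7.67% of all genes compared. There 1, Kit, was at least 2-fold lower, beside 3.5% of all genes compared. Kit had 5.93 FPKM in the knockout and 21.7 FPKM in the wild-type library, a log2 ratio of -1.71. The median log2 ratio of the receptors was 0.22, beside 0.22 over all genes compared, and it was -0.20 with RefSeq transcripts alone. Both Kit and its ligand were thus lower in the knockout library. The GDNF receptors were among the most abundant: Ret had 50.7 FPKM in the knockout and 40.4 FPKM in the wild-type library. Gfra1 had 48.5 FPKM in the knockout and 27.4 FPKM in the wild-type library, and its log2 ratio of 0.80 became -0.01 with RefSeq transcripts alone. Csf1r, the receptor of CSF1 and a macrophage marker, had 55.2 FPKM in the knockout and 34.1 FPKM in the wild-type library, a log2 ratio of 0.68 that did not depend on the models counted.

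Of the FGF receptors Fgfr1 was the highest, at 33.9 FPKM in the knockout and 25.1 FPKM in the wild-type library. Fgfr2 had 4.41 FPKM in the knockout and 3.14 FPKM in the wild-type library, and Fgfr3 had 2.95 FPKM in the knockout and 2.33 FPKM in the wild-type library. Fgfr4 stayed under 1 FPKM, at 0.828 FPKM in the knockout and 0.974 FPKM in the wild-type library. The FGF receptors were thus present where Fgf2 was near 0 and Fgf8 was low. Igf1r had 24.8 FPKM in the knockout and 21.7 FPKM in the wild-type library, with a log2 ratio of 0.19 that became -0.81 with RefSeq transcripts alone. Egfr had 3.42 FPKM in the knockout and 4.10 FPKM in the wild-type library. Both chains of the LIF receptor were above Lif itself. Lifr had 7.74 FPKM in the knockout and 7.45 FPKM in the wild-type library, and Il6st had 25.8 FPKM in the knockout and 32.5 FPKM in the wild-type library. Counting only RefSeq transcripts, Lifr had a log2 ratio of -1.31 and Il6st one of -1.46. Among the receptors of VEGFA, Flt1 had 4.19 FPKM in the knockout and 2.97 FPKM in the wild-type library. Kdr had 3.18 FPKM in the knockout and 3.54 FPKM in the wild-type library, and Nrp1 had 10.6 FPKM in the knockout and 13.0 FPKM in the wild-type library.

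Relatives of the 9 factors were looked at as a list of 37 other ligands, most but not all of the same families, of which 16 were compared. In the knockout library 2 were at least 2-fold higher, where 7.67% of all genes compared were. There 0 were at least 2-fold lower, where 3.5% of all genes compared were. Relative to the median gene 0 were at least 2-fold higher, where 4.87% were. The median log2 ratio was 0.38, beside 0.22 over all genes compared. Neurturin (Nrtn), a relative of GDNF, had 8.16 FPKM in the knockout and 3.08 FPKM in the wild-type library, a log2 ratio of 1.17. Clcf1, a cytokine of the LIF family, had 12.1 FPKM in the knockout and 5.21 FPKM in the wild-type library, but its log2 ratio of 1.07 was 0.57 by exon level. The VEGFA relatives Vegfb, with 15.9 FPKM in the knockout and 8.54 FPKM in the wild-type library, and Vegfd, with 7.98 FPKM in the knockout and 4.50 FPKM in the wild-type library, were the next largest. Among the 16 compared, only Fgf22 and Pgf had log2 ratios below 0, at -0.56 and -0.07. Set against the median gene, 10 of the 16 were above and 6 below.

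The IGF binding proteins carry IGF1 and limit or prolong its action. Of 8 such genes 6 were compared. In the knockout library 1 was at least 2-fold higher (7.67% over all genes compared) and 0 were at least 2-fold lower (3.5%). Relative to the median gene 0 were at least 2-fold higher (4.87%). The median log2 ratio was 0.78, beside 0.22 over all genes compared and 0.09 for Igf1. Relative to the median gene the list was at 0.57 and Igf1 at -0.12. Igfbp6 had 135.5 FPKM in the knockout and 65.6 FPKM in the wild-type library, a log2 ratio of 1.04 that became -0.08 with RefSeq transcripts alone. Igfbp7 had 269.6 FPKM in the knockout and 138.7 FPKM in the wild-type library, in each case outside its own summed bounds. Igfbp4 had 137.1 FPKM in the knockout and 72.9 FPKM in the wild-type library, and Igfbp3 had 15.5 FPKM in the knockout and 9.51 FPKM in the wild-type library. Igfbp5 alone had a log2 ratio below 0, at -0.53. Set against the median gene, 4 of the 6 were above and 2 below. With RefSeq transcripts alone the median of the list was 0.12.

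Genes known to respond to GDNF in spermatogonia lay on both sides of 0. All 10 of the list were compared, 1 was at least 2-fold higher in the knockout library and 0 were at least 2-fold lower, beside 7.67% and 3.5% of all genes compared. Relative to the median gene 1, Id4, was at least 2-fold higher and 1, Pou3f1, at least 2-fold lower, beside 4.87% and 5.41%. The median log2 ratio was -0.15, beside 0.22 over all genes compared and 0.45 for Gdnf. Id4 had 35.0 FPKM in the knockout and 14.4 FPKM in the wild-type library, a log2 ratio of 1.23. Nanos2 had a log2 ratio of 0.92, Cxcr4 had 0.83 and Pou3f1 had -0.81. Of the 10, 4 had a log2 ratio above 0 and 6 below 0. Over all genes compared 9119 were above 0 and 4698 below. Set against the median gene, 3 of the 10 were above and 7 below.

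Most of these factors are made by somatic cells of the testis, and markers of such cells were present in both libraries and mostly higher in the knockout library. Of all 13817 genes compared 9119 also had a log2 ratio above 0, and their median was 0.22. All 22 Sertoli markers were compared, 6 were at least 2-fold higher and 0 at least 2-fold lower, their median log2 ratio was 0.75, and they summed to 2485 FPKM in the knockout and 1398 FPKM in the wild-type library. Tsx was the only one listed at 0, in the wild-type library. Markers of macrophages and other leukocytes summed to 1179 FPKM in the knockout and 600.1 FPKM in the wild-type library, with 7 of 15 at least 2-fold higher. Of these 15 markers 3 had a log2 ratio below 0, and 1, Cd68, was at least 2-fold lower. Cd68 was listed at 0 in the knockout library and at 24.6 FPKM in the wild-type library. Leydig markers summed to 173.3 FPKM in the knockout and 76.9 FPKM in the wild-type library, with Star listed at 0 in both and Srd5a1 in the wild-type library. Of the 8 Leydig markers compared, 3 were at least 2-fold higher. Endothelial markers had a median log2 ratio of 0.69, with 4 of 12 at least 2-fold higher, and summed to 151.2 FPKM in the knockout and 77.7 FPKM in the wild-type library. Peritubular and stromal markers had a median of 0.36, with 0 of 13 at least 2-fold different, and summed to 1236 FPKM in the knockout and 890.5 FPKM in the wild-type library. In both of these lists no marker was at 0. The peritubular and stromal median ran from 0.13 to 0.57 over the alternatives. Of the peritubular and stromal markers 7 lay above the median gene and 6 below it. FPKM over all genes compared summed to 511113 in the knockout and 412364 in the wild-type library. Of all genes compared 3.5% were at least 2-fold lower and 7.67% were at least 2-fold higher. Relative to the median gene, where 4.87% were, the counts at least 2-fold higher were 6 Sertoli, 5 macrophage, 2 Leydig and 2 endothelial markers. Markers of undifferentiated spermatogonia had a median of 0.22 and those of differentiating spermatogonia one of -0.19, also with none at 0. Kitl, a Sertoli product, was lower in the knockout library where the Sertoli markers were mostly higher. Csf1, at 0.54, was higher, like most markers in each of the somatic cell lists and like most genes compared. What part these markers have in the levels of the growth factors was not tested. The marker ratios were not adjusted for transcript length, with which ratios moved as described below.

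**Figure D4:**
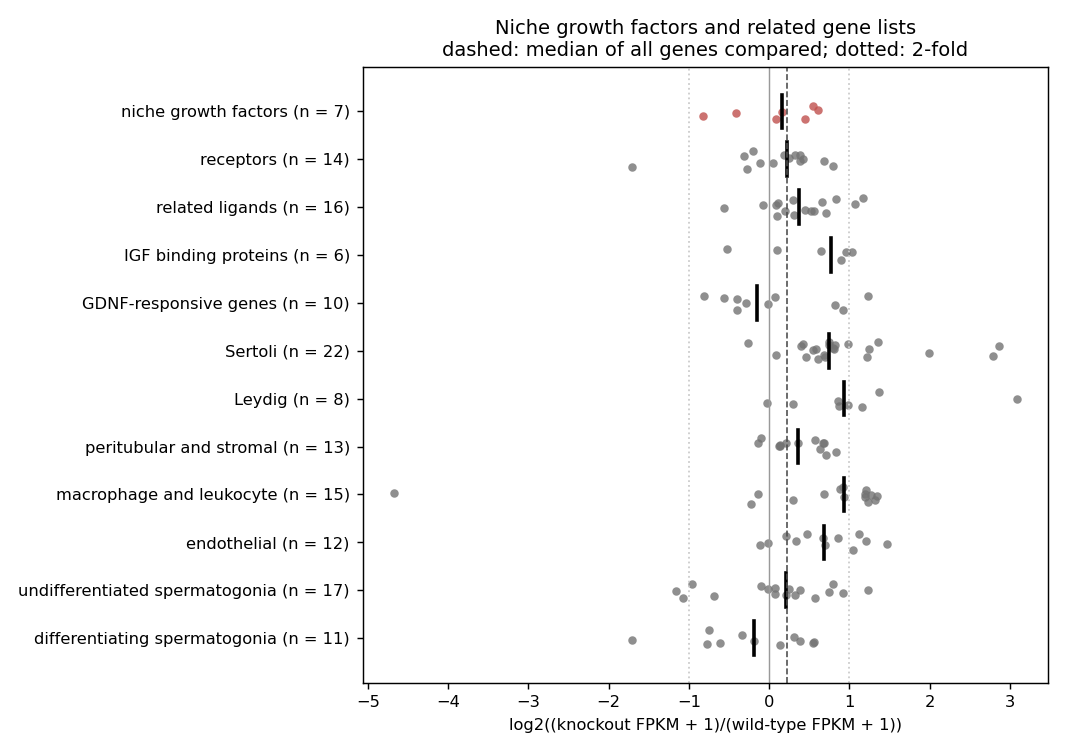
Log2 ratios, knockout over wild type, of the genes compared in each list (points, scattered up and down for sight), with list medians as black bars, the median over all genes compared as a dashed line and 2-fold as dotted lines; growth factors are in red. The points of Tsx, Srd5a1 and Cd68, each listed at 0 in a library, are set by the pseudocount. The 7 growth factors lie between -0.83 and 0.61 around a median of 0.17, and the Sertoli, Leydig, macrophage and endothelial lists have medians of 0.69 or more.

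Log2 ratios also moved with transcript length. The median was 0.41 for genes whose longest transcript was between 1000 and 2000 nt, the class of Fgf8. It was 0.20 between 2000 and 4000 nt, the class of Gdnf and Vegfa, and -0.06 between 4000 and 8000 nt, the class of Kitl, Csf1, Igf1 and Egf. It was 0.54 between 300 and 1000 nt and -0.35 at 8000 nt or more, classes with 0 of the growth factors compared. Against its own class Kitl was still low, and Csf1 was further above its class than above the median over all genes compared. Fgf8 at 0.61, Gdnf at 0.45 and Vegfa at 0.17 lay nearer to their class medians than Kitl and Csf1 did to theirs. So did Igf1 at 0.09 and Egf at -0.41. What part length has in these ratios, or in those of the gene lists and markers, was not tested.

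**Figure D5:**
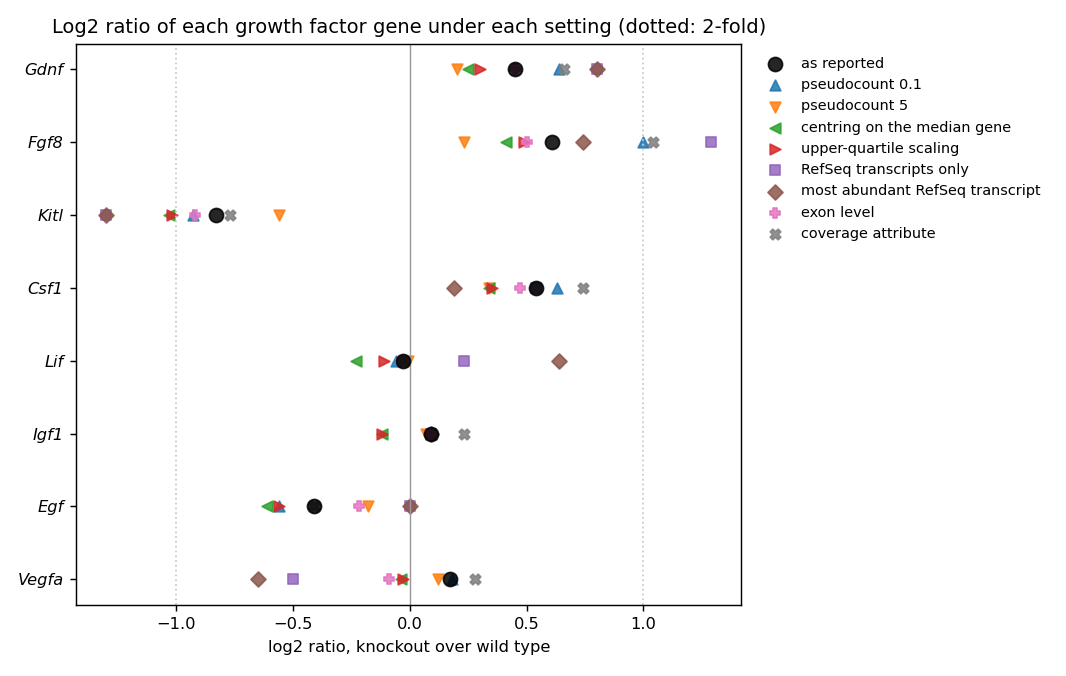
Log2 ratio, knockout over wild type, of the 8 growth factor genes above 0 in both libraries as reported (black) and under 8 other settings (coloured), with 2-fold as dotted lines. Kitl is below 0 and Gdnf, Csf1 and Fgf8 are above 0 under each of the settings plotted, whereas Igf1, Lif and Vegfa have points on both sides of 0.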

How the data were processed

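Poly(A) RNA libraries, 1 from Dnmt3l knockout and 1 from wild-type cells, were processed by the submitters with CASAVA 1.9, TopHat2 2.0.8 and Cufflinks 2.1.1 on mm10, per the submitters' processing notes, which give no settings. The deposited transcript annotations carry an FPKM, its bounds and a coverage for each transcript as other attributes, per the file headers, and the authors' FPKM were used as deposited. Read counts are not among the values used, so depth is unknown. Coverage per FPKM had a median of 3.45 in the knockout library and 3.13 in the wild-type library.

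RefSeq identifiers were named by accession (28942 of 30079), by gene names in the files or by exon overlap with GENCODE M21. Same-strand assembled models of 300 nt or more over the exons of a gene were added, and models without a strand only where 0.5 or more of their bases were shared. Genes that reached 1 FPKM in either library and had a transcript of 300 nt or more were compared with a pseudocount of 1, in Python 3.11.15 with NumPy 2.4.6. The computation was tested on simulated data. The members and gene lists were chosen with earlier results of these data known. Named genes are the 9 factors, their receptors, Dnmt3l, and up to 4 genes with the largest ratios of any other list or those needed for a count. The alternatives tried are given in the closing section.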

Additional observations from a re-analysis of the deposited data

Results flagged for a closer look

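Models without a strand that were joined to no gene gave signal beside Kitl and Igf1 in the knockout library, and beside neither of these genes in the wild-type library. Inside Kitl, between its RefSeq exons, 3 single-exon models summed to 5.03 FPKM in the knockout library, with 1.98, 2.19 and 0.860 FPKM, and 0 models were listed there in the wild-type library. Downstream of Igf1, 2 models that begin 454 and 1277 nt past its end summed to 5.36 FPKM in the knockout library, with 2.57 and 2.79 FPKM, and 0 were listed in the wild-type library. They were drawn from models that none of the comparisons counted. In the other direction, a model 653 nt upstream of Gdnf had 0.854 FPKM in the wild-type library and no counterpart in the knockout library. Since models are assembled separately in each library, an absent model is not an absent transcript.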

How the results depend on the processing

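The count of growth factors at least 2-fold higher in the knockout library was 0 as reported and 1, Fgf8, with a pseudocount of 0.1, with RefSeq transcripts only, with the coverage attribute and at a threshold of 1.5-fold. Under these settings 1 of 7 is 14.3%. The shares over all genes compared were 11%, 10.4%, 13.5% and 22.7%, in the same order. The count at least 2-fold lower was 0 as reported and 1, Kitl, with upper-quartile scaling, centring on the median gene, RefSeq transcripts only, the most abundant RefSeq transcript and a threshold of 1.5-fold. Over all genes compared the shares lower were 5.25%, 5.41%, 10.1%, 10.4% and 9.01%, in the same order. The median log2 ratio of the factors ran from -0.37, with a filter of 10 FPKM that leaves Kitl and Igf1, to 0.28, beside 0.17 as reported. Kitl ran from -1.30 to -0.56, Gdnf from 0.20 to 0.80, Csf1 from 0.19 to 0.74 and Fgf8 from 0.23 to 1.29 without a change of sign. Egf ran from -0.61 to 0.00, while Igf1 (-0.12 to 0.23), Lif (-0.23 to 0.64) and Vegfa (-0.65 to 0.28) changed sign under 2, 2 and 5 alternatives. The cause was not tested.

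Over all genes compared, 1060 were at least 2-fold higher and 483 at least 2-fold lower as reported. These counts became 673 and 748 with centring on the median gene, 708 and 725 with upper-quartile scaling, 1436 and 1392 with RefSeq transcripts only, and 1506 and 1436 with the most abundant RefSeq transcript. They were 1517 and 682 with a pseudocount of 0.1, and 415 and 160 with a pseudocount of 5. A filter of 10 FPKM left 8267 genes, with counts of 569 and 200 among them. The counts were 672 and 407 by exon level, and 1864 and 520 by coverage. At 1.5-fold they were 3138 and 1245, and at 4-fold 268 and 132. No paired analysis was possible because the result comes from no test and each genotype has 1 library. Leaving out a replicate would leave a genotype without a library. Depth is unknown, and levels under 1 FPKM are poorly determined.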
